A study of Mus musculus with 12 samples.

Results

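Notch signalling passes between touching cells, and 10 of its genes were followed here in mouse tail tip fibroblasts that differ in the long noncoding RNA Hotair. They are the receptor genes Notch1, Notch2, Notch3 and Notch4, the ligand genes Jag1, Jag2 and Dll1, the ligand-like gene Dlk2, and the target genes Hes1 and Hey1. The genes were chosen by symbol, and all 10 had a row among the 24132 gene rows of the deposited expression table. The cells were neonatal tail tip fibroblasts, connective tissue cells grown from the tails of newborn mice, on a strain backcrossed to C57BL6 with over 97% similarity. Poly(A) RNA was sequenced from 2 Hotair knockout libraries (KO), 2 Hotair heterozygous libraries (HET) and 2 Hotair wildtype libraries (WT). The title of the series describes a targeted disruption of Hotair. Whether the 2 libraries of a genotype came from separate mice or cultures is not given in the labels, so each p-value reflects library-to-library spread that may be no more than technical. ChIP-seq samples of the series are not analysed here.

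A Notch receptor is a membrane protein that is cut when a ligand of the Jagged or Delta family on a neighbouring cell binds it. The freed intracellular part enters the nucleus, joins the DNA-binding protein RBPJ and a Mastermind coactivator, and switches on target genes, of which the Hes and Hey repressors are the best known. In fibroblasts and other connective tissue cells the pathway is known for its part in differentiation, including that of fat cells, and in wound repair.

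Promoter sequences are shown for the 3 tested genes with the widest range between genotypes, Jag1, Dlk2 and Notch2. They come from RefSeq on GRCm38.p6 (the expression values were made on mm9), and each window holds 250 bases before and 50 bases after an annotated transcript start. Entries were matched for 8 of the 10 genes, as 10 windows. The target genes Hes1 and Hey1 had no entry, so their promoters were not searched. Both strands were searched for the RBPJ core TGGGAA, its longer form GTGGGAA (which contains the core), the N box CACNAG bound by Hes-type repressors and the E box CACGTG. Capitals mark an N box, read on the opposite strand in both sequences that carry one.
Jag1, chr2:137116471-137116770, minus strand: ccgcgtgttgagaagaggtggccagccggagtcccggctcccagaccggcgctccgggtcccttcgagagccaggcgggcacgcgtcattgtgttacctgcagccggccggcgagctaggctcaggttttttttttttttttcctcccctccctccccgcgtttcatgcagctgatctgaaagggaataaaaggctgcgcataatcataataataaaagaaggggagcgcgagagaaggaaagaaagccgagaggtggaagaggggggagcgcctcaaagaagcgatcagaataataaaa
Notch2, chr3:98013288-98013587, plus strand: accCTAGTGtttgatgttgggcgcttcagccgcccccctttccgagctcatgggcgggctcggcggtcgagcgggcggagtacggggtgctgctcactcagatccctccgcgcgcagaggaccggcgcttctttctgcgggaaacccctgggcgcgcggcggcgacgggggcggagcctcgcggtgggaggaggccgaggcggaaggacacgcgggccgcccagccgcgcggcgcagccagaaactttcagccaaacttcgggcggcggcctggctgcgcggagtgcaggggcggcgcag
Dlk2, first start, chr17:46297233-46297532, plus strand: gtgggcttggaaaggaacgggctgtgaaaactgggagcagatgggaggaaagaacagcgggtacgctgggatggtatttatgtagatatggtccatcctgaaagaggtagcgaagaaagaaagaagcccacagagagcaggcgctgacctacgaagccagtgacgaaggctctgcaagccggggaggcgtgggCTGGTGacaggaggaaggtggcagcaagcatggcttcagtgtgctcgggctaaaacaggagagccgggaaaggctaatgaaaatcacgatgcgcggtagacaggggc
Dlk2, second start, chr17:46297678-46297977, plus strand: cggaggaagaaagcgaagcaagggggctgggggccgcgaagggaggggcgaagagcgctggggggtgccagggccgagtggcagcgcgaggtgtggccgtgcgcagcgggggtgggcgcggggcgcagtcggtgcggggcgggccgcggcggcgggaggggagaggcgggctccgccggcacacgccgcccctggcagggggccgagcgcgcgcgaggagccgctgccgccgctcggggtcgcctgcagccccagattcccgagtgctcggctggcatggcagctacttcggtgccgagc
Neither RBPJ form and no E box lay in any of the 10 windows, while 25.6% of all 32851 RefSeq windows held TGGGAA, 6.38% held GTGGGAA and 7.15% held CACGTG. N boxes lay in 5 of the 10 windows, against 42.5% of all windows. The Jag1 window held no searched motif, and its GC content of 55.7% was near the median of all windows, 52.7%. The Notch2 window (73% GC) held 1 N box at position -247 from the start. Of the Dlk2 windows, the first (56% GC) held 1 N box at position -57 and the second (78.3% GC) held none. These matches describe letters in the windows only.

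Levels are given as RPKM, read counts scaled to gene length and to the total of aligned reads, which allows levels of different genes to be compared. Gene lengths and read numbers were recovered from the deposited values, at 48.1M and 46.0M reads in KO, 33.2M and 31.2M in HET and 29.6M and 27.9M in WT. Hotair was at 0 RPKM in both KO libraries, which allows up to 0.0143 RPKM (3 reads over the group), at 0.213 and 0.172 RPKM in HET and at 0.247 and 0.184 RPKM in WT. These HET and WT values rest on 11.4 to 16.2 reads per library. The fibroblast markers were present, with all 10 of the list at or above the filter of the test and a sum of 5019 and 5040 RPKM in KO, 5039 and 5132 RPKM in HET and 5398 and 5429 RPKM in WT. Vim was the highest of them. The sum hides unequal levels, since all 10 passed the test described next in KO against WT, 5 higher and 5 lower, with KO means between 0.498 (Thy1) and 5.9 (Lum) times the WT means, a pair named after their values were seen. Intervals, floors and read numbers cover counting error only.

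Differences between genotypes were tested with limma on log2(RPKM + 1), a scale that understates the change of low genes, over the 10897 genes that reached 1 RPKM in 2 or more of 6 libraries. The 3 comparisons share libraries and are not independent. Of the 10 genes, 6 entered the test, and Notch3 and Dlk2 did so only through the KO libraries, where they were highest, so their entry already required a difference. Notch4, Jag2, Dll1 and Hey1 lay under the filter. In KO against WT 4 of the 6 passed as higher and 2 as lower at an adjusted p under 0.05, in a comparison where 67.2% of all genes tested passed (40.6% higher and 26.6% lower). In HET against WT 3 passed as higher and 1 as lower, with 52.6% of all genes passing (35.5% higher and 17.1% lower). In KO against HET 4 passed as higher and 2 as lower, with 51.8% of all genes passing (26.4% higher and 25.4% lower). Passing the test was thus common across the transcriptome and does not set these genes apart.

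**Figure D1:**
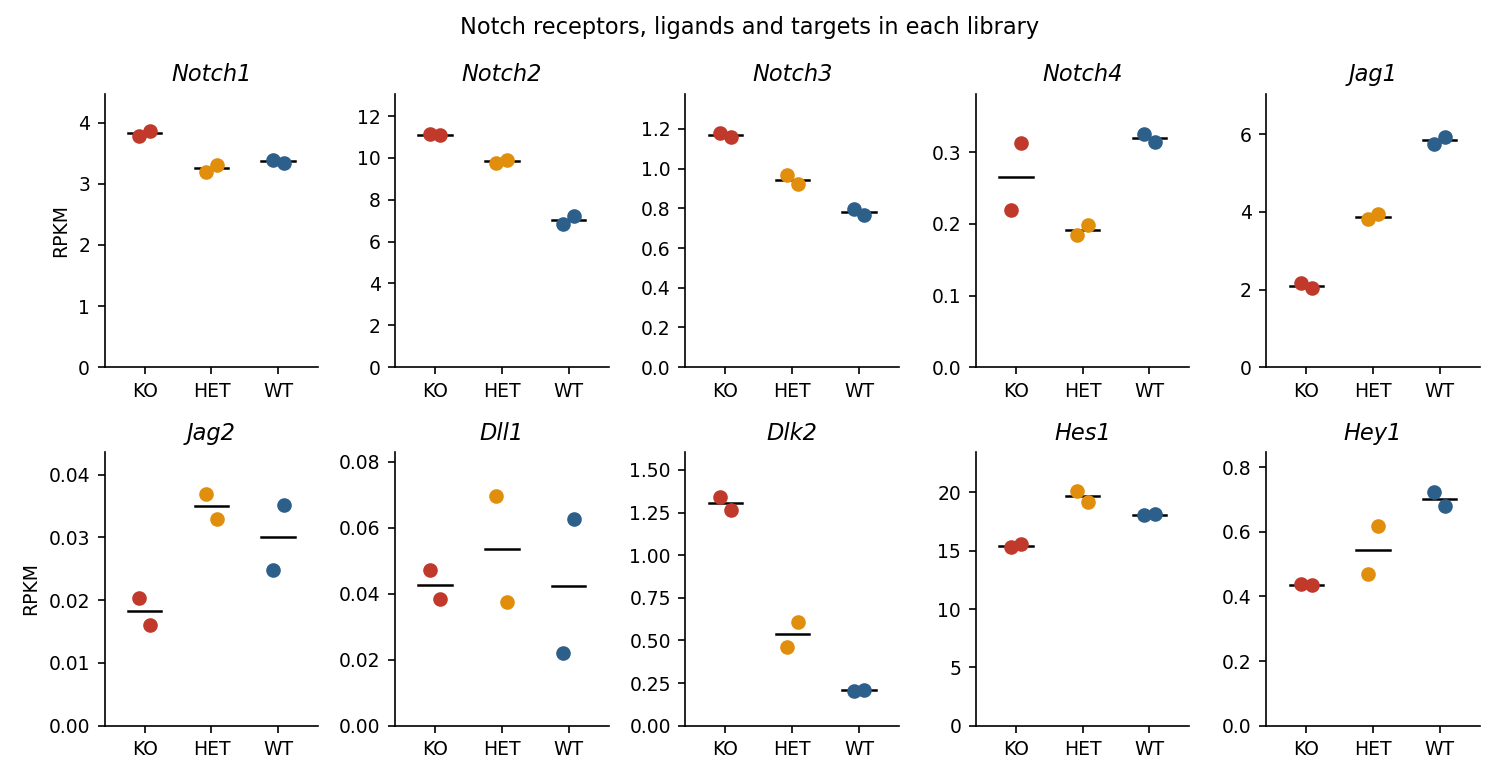
RPKM of each gene in each library (points) with the mean of the 2 libraries (line), for KO, HET and WT, on axes that start at 0 and differ between genes. Jag1 is lowest in KO, at 2.17 and 2.03 RPKM against 5.75 and 5.94 RPKM in WT, while Notch2 and Dlk2 run the other way and Hes1 is highest in HET.

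Among the receptors, Notch2 was the most abundant in every library and showed the widest difference. Notch2 stood at 11.2 and 11.1 RPKM in KO, at 9.78 and 9.90 RPKM in HET and at 6.84 and 7.22 RPKM in WT. The genotypes did not overlap, and HET lay nearer to KO than to WT. By limma, the log2 difference was 0.59 ± 0.04 in KO against WT (SE, adjusted p = 1.21e-05), 0.43 ± 0.04 in HET against WT (adjusted p = 0.000129) and 0.16 ± 0.04 in KO against HET (adjusted p = 0.0115). Between 2123 and 5654 reads per library stood behind these values. The KO against HET call was lost without KO replicate 1, without KO replicate 2 or without HET replicate 1 (limma adjusted p = 0.066, 0.0544 and 0.0509).

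Notch1, a broadly expressed receptor, varied little. It had 3.791 and 3.862 RPKM in KO, 3.201 and 3.314 RPKM in HET and 3.397 and 3.345 RPKM in WT. KO was above both other genotypes and HET just below WT. The log2 difference of KO against WT was 0.14 ± 0.04 as deposited (limma adjusted p = 0.0211), but it reversed to -0.028 with quantile normalization and to -0.150 when a trend with gene length was subtracted (limma adjusted p = 0.56 and 0.0163). The deposited-scale call was also lost with median scaling and without KO replicate 1, KO replicate 2 or WT replicate 2 (limma adjusted p = 0.113, 0.0722, 0.11 and 0.0705). A direction for Notch1 in KO against WT therefore depended on the scaling. HET against WT did not pass (log2 difference -0.04 ± 0.04, limma adjusted p = 0.493) except with quantile normalization (-0.152) and the length adjustment (-0.204), where it was lower in HET. KO against HET gave 0.18 ± 0.04 (limma adjusted p = 0.011), and 0.054 (limma adjusted p = 0.322) after the length adjustment. Leaving out KO replicate 1, KO replicate 2 or HET replicate 1 also ended that call (limma adjusted p = 0.0506, 0.0716 and 0.0537).

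Notch3, known as the receptor of vascular smooth muscle cells and pericytes, was near the filter. Its level was 1.18 and 1.16 RPKM in KO, 0.967 and 0.921 RPKM in HET and 0.795 and 0.768 RPKM in WT, without overlap. The log2 difference was 0.28 ± 0.05 in KO against WT (limma adjusted p = 0.00217), 0.13 ± 0.05 in HET against WT (limma adjusted p = 0.0806) and 0.16 ± 0.05 in KO against HET (limma adjusted p = 0.039). In KO against WT it was 0.024 with quantile normalization and 0.033 with the length adjustment, and neither passed (limma adjusted p = 0.694 and 0.595). The HET against WT value turned to -0.025 and -0.023 under the same pair of settings. KO against HET dropped to 0.049 with quantile normalization and 0.057 with the length adjustment, and neither passed (limma adjusted p = 0.455 and 0.396). It also lost its call without any 1 of the KO or HET libraries, and with the replicate number as a block (limma adjusted p = 0.0516).

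Notch4, known from endothelium, was the lowest receptor, at 0.219 and 0.313 RPKM in KO, 0.185 and 0.199 RPKM in HET and 0.325 and 0.315 RPKM in WT. The KO libraries lay apart from each other, and HET was below both others. Pooled over both libraries, the exact Poisson 95% interval was 0.226 to 0.308 RPKM in KO, 0.153 to 0.238 RPKM in HET and 0.266 to 0.382 RPKM in WT. In the fit with no filter, HET against WT passed (log2 difference -0.15 ± 0.04, limma adjusted p = 0.0426) and KO against WT did not (-0.06 ± 0.04, limma adjusted p = 0.27).

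The receptor genes are long, and length went with the differences over the whole transcriptome. The recovered lengths were 10540 bases for Notch2, 9523 for Notch1, 7976 for Notch3 and 6634 for Notch4, against a median of 2743 bases over all genes tested. In KO against WT the median log2 difference was 0.24 over the 1119 genes longer than 6 kb, 0.13 over those of 4 to 6 kb and -0.01 over those of 1 to 2 kb. In HET against WT the same classes gave 0.16, 0.10 and 0.03. Genes with a mean of up to 3 RPKM had a median of 0.23 in KO against WT, and those above 100 RPKM had -0.09. Of the receptors, Notch2 stood above the median of its length class and still passed after the length adjustment, at 0.278 in KO against WT (limma adjusted p = 0.00058) and 0.258 in HET against WT (limma adjusted p = 0.00156). Its KO against HET difference was then 0.021 (limma adjusted p = 0.684). Notch1 lay under the median of the same class and Notch3 near it. The part of length in these results was not tested beyond that adjustment, which was chosen after seeing the data.

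**Figure D2:**
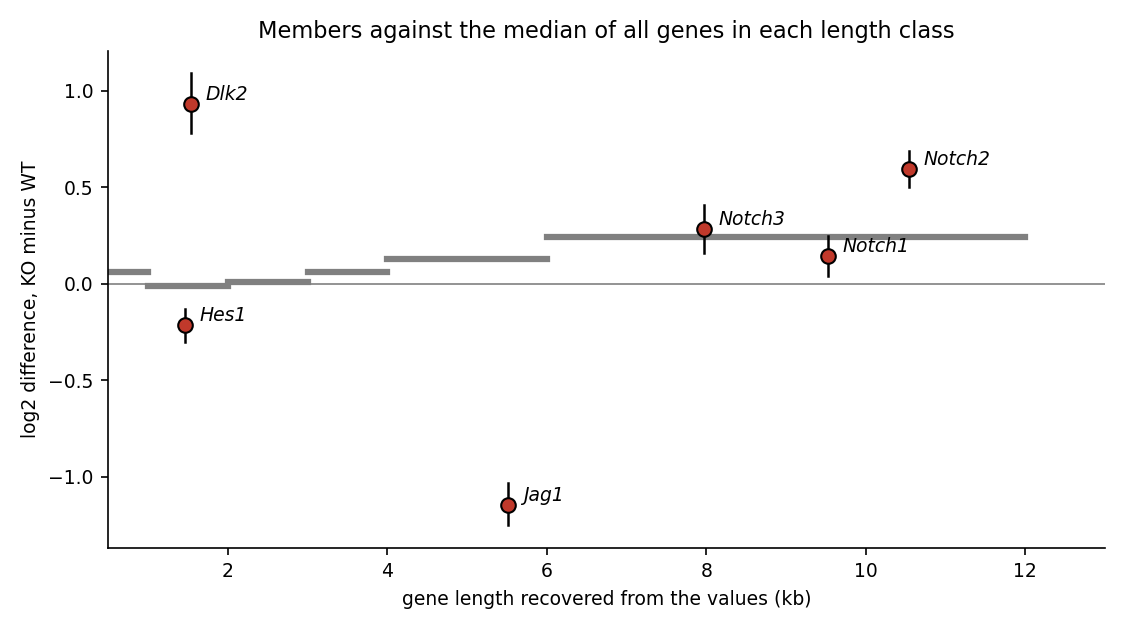
Log2 difference of KO minus WT (vertical axis) against recovered gene length in kb (horizontal axis) for the 6 tested genes, with 95% intervals of the limma fit, and the median of all tested genes in each length class (grey bars; the last covers all genes longer than 6 kb). Notch3 lies by the grey bar of 0.24 and Notch1 under it, and Notch2, Dlk2 and Jag1 lie away from theirs. The Notch1 value reverses with quantile normalization and the length adjustment.

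Summed over the 4 receptors, the level was 16.4 and 16.4 RPKM in KO, 14.1 and 14.3 RPKM in HET and 11.4 and 11.7 RPKM in WT. Notch2 made up 68.3% and 67.5% of this sum in KO, 69.2% and 69.1% in HET and 60.2% and 62% in WT. The Notch1 share was 23.2% and 23.5% in KO, 22.7% and 23.1% in HET and 29.9% and 28.7% in WT. Both KO and HET thus had a receptor makeup with more Notch2 and less Notch1 by share than WT, with no overlap between libraries. Shares of 1 sum move against each other, and the Notch1 level itself averaged 3.83 RPKM in KO, 3.26 RPKM in HET and 3.37 RPKM in WT. The shares were not tested separately, and the trend with gene length was not taken out of them or of the sum.

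Jag1 encodes the Jagged ligand of fibroblasts and many other tissues, and it was the only ligand of the canonical family with more than trace RNA. It had 2.17 and 2.03 RPKM in KO, 3.81 and 3.96 RPKM in HET and 5.75 and 5.94 RPKM in WT. No library overlapped with another genotype, and HET lay between KO and WT. Jag1 fell by 1.14 ± 0.05 on the log2 scale in KO against WT (limma adjusted p = 1.45e-06), by 0.49 ± 0.05 in HET against WT (limma adjusted p = 0.000176) and by 0.66 ± 0.05 in KO against HET (limma adjusted p = 5.26e-05). On the unlogged scale the KO mean was 0.359 of the WT mean and the HET mean 0.664 of it. The reads behind these levels were 575 and 515 in KO, 698 and 680 in HET and 940 and 913 in WT, so that the deepest libraries held the fewest Jag1 reads. Jag1 is itself 5519 bases long, in a length class whose median was higher in KO, and the length adjustment widened its KO against WT difference to -1.309. All 3 calls held in every alternative run.

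The other canonical ligands were at trace levels. Jag2 had 0.0204 and 0.0160 RPKM in KO, 0.0369 and 0.0330 RPKM in HET and 0.0249 and 0.0352 RPKM in WT, on 3 to 5 reads per library. Dll1, the Delta ligand of somite and muscle progenitors, had 0.0471 and 0.0383 RPKM in KO, 0.0697 and 0.0373 RPKM in HET and 0.0220 and 0.0626 RPKM in WT. The exact Poisson 95% intervals of the pooled counts overlapped between all genotypes for both genes, for Dll1 at 0.0237 to 0.0726 RPKM in KO, 0.028 to 0.0946 RPKM in HET and 0.0175 to 0.0797 RPKM in WT. A difference in Jag2 or Dll1 was not detectable at this depth. With Dll3 and Dll4 included, the canonical ligands summed to 2.32 and 2.12 RPKM in KO, 3.97 and 4.06 RPKM in HET and 5.80 and 6.04 RPKM in WT, of which Jag1 made up between 93.5% and 99.2%.

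Dlk2 is a membrane protein with EGF-like repeats, related to the Delta family but lacking the DSL domain by which ligands activate the receptor. Dlk2 RNA was highest in KO, lower in HET and lowest in WT. It had 1.34 and 1.27 RPKM in KO, 0.464 and 0.611 RPKM in HET and 0.206 and 0.208 RPKM in WT. The groups did not overlap, and the KO mean was 6.29 times and the HET mean 2.6 times the WT mean. The reads behind these values were 98.9 and 89.6 in KO, 23.7 and 29.3 in HET and only 9.38 and 8.92 in WT. The exact Poisson 95% interval of the pooled level was 1.13 to 1.51 RPKM in KO, 0.401 to 0.7 RPKM in HET and 0.121 to 0.322 RPKM in WT. The log2 difference was 0.93 ± 0.07 in KO against WT (limma adjusted p = 1.7e-05), 0.35 ± 0.07 in HET against WT (limma adjusted p = 0.00403) and 0.58 ± 0.07 in KO against HET (limma adjusted p = 0.000391). With a pseudocount of 0.1 in place of 1 these became 2.192, 1.044 and 1.148, and with quantile normalization HET against WT no longer passed (0.171, limma adjusted p = 0.0797). At 1538 bases, Dlk2 lies in a length class with a median near 0. By level it lies in the class of up to 3 RPKM, whose median was 0.23 in KO against WT. Quantile normalization lowered its KO against WT difference to 0.663, which still passed (limma adjusted p = 0.000173).

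**Figure D3:**
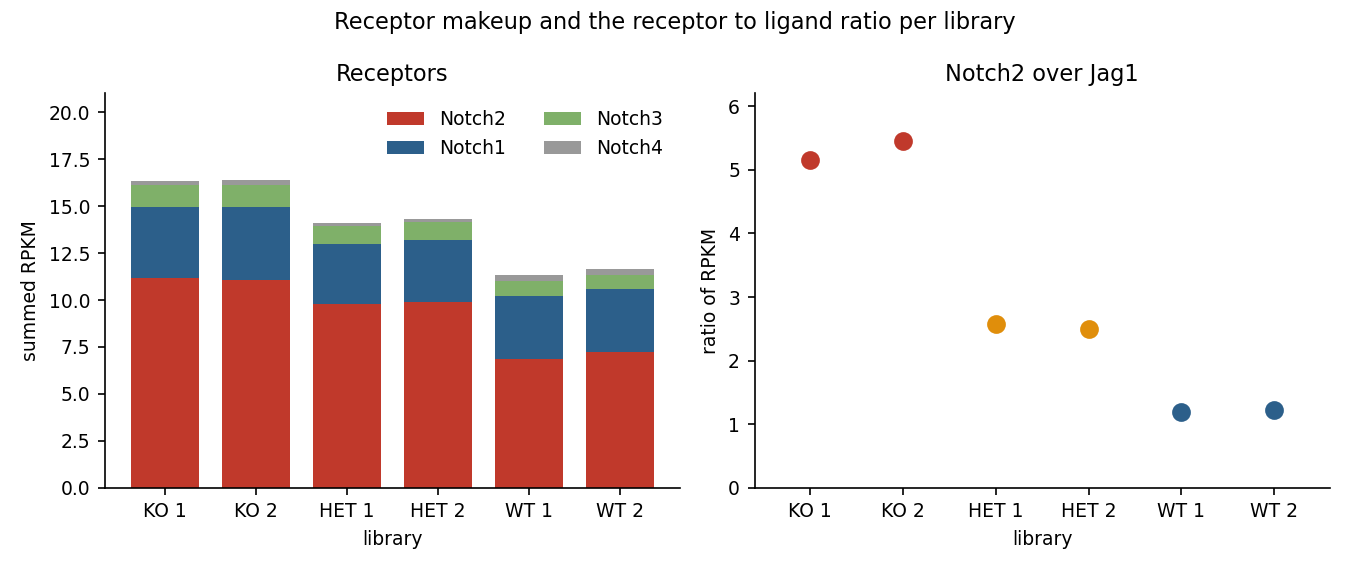
Left, RPKM of the 4 receptors stacked per library, with KO first, then HET and WT; the sum is 16.4 RPKM in both KO libraries and 11.4 and 11.7 RPKM in WT. Right, the ratio of Notch2 RPKM to Jag1 RPKM per library, which is above 5 in KO and near 1.2 in WT.

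The main receptor and the main ligand ran in opposite directions without overlap, so their ratio had to separate the genotypes as well. The ratio of Notch2 to Jag1 RPKM was 5.15 and 5.46 in KO, 2.57 and 2.5 in HET and 1.19 and 1.22 in WT. A ratio within a library does not depend on how libraries are scaled to each other by a single factor, but it describes unequal change of the pair and was not tested separately. The trend with gene length was not taken out of it.

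The targets were lower in KO than in WT, while HET did not follow a single direction. Hes1, a repressor that is an immediate target of the cleaved receptor in many cells and also responds to other signals, had 15.3 and 15.6 RPKM in KO, 20.2 and 19.2 RPKM in HET and 18.1 and 18.1 RPKM in WT. KO was lowest and HET highest, without overlap. Hes1 fell by 0.21 ± 0.03 on the log2 scale in KO against WT (limma adjusted p = 0.00115) and by 0.33 ± 0.03 in KO against HET (limma adjusted p = 0.00029), and both calls held in every alternative run. In HET against WT the difference was 0.12 ± 0.03 (limma adjusted p = 0.0276). That call was lost with quantile normalization, median scaling and the length adjustment (limma adjusted p = 0.0601, 0.295 and 0.0731), and without HET replicate 1, WT replicate 1 or WT replicate 2 (limma adjusted p = 0.138, 0.0859 and 0.0777).

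Hey1, a related repressor known from vessels and heart, was below the filter at 0.438 and 0.434 RPKM in KO, 0.470 and 0.619 RPKM in HET and 0.722 and 0.680 RPKM in WT. All KO libraries were under all WT libraries, with HET in between. The exact Poisson 95% interval of the pooled level was 0.352 to 0.537 RPKM in KO and 0.563 to 0.862 RPKM in WT. In the fit with no filter, where all 10 genes could be tested and 44.2% of genes passed in KO against WT, Hey1 was lower in KO (log2 difference -0.24 ± 0.05, limma adjusted p = 0.0162). HET against WT did not pass in that fit (-0.14 ± 0.05, limma adjusted p = 0.112). With no filter 7 of the 10 genes passed in KO against WT, 5 of 10 in HET against WT (29.6% of all genes) and 6 of 10 in KO against HET (31.3% of all genes).

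**Figure D4:**
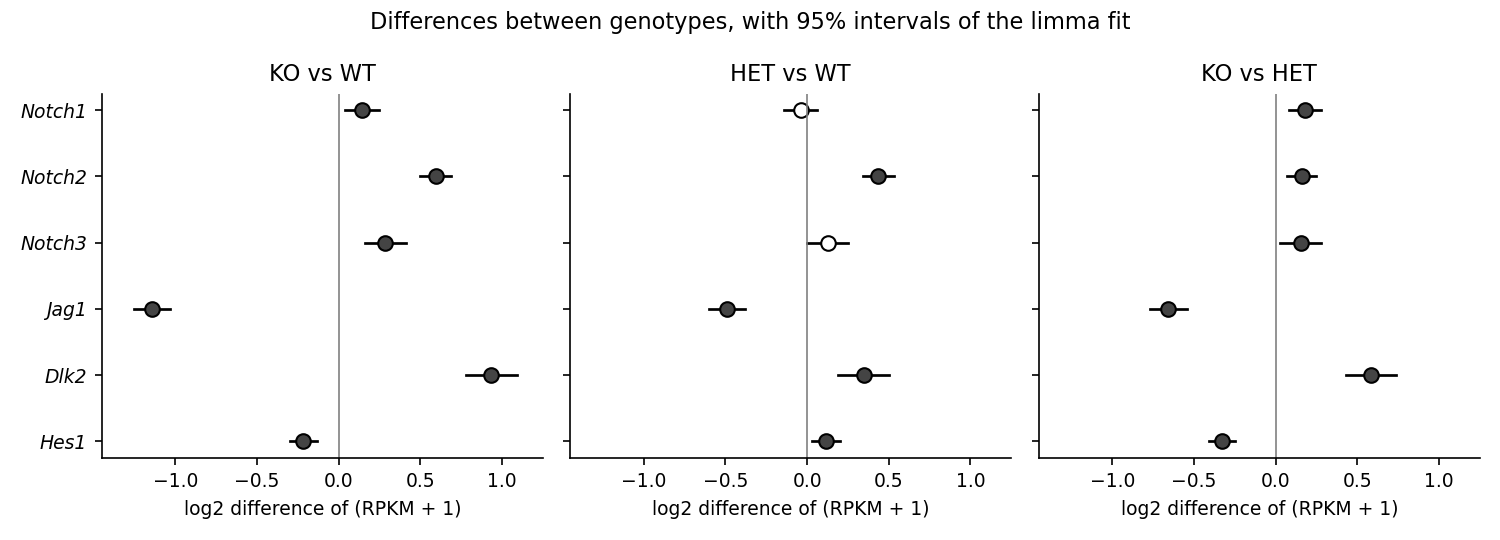
Log2 difference of (RPKM + 1) for the 6 tested genes in KO against WT, HET against WT and KO against HET, with 95% intervals of the limma fit; filled points have an adjusted p under 0.05. Jag1 is on the left in each panel and Dlk2 and Notch2 on the right, and Hes1 changes side between the KO against WT and HET against WT panels. The KO against WT value of Notch1 and the HET against WT value of Notch3 reverse with quantile normalization and the length adjustment.

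The other pathway genes, in 6 lists of 59 genes, were measured beside these 10, and 47 of them were tested. In KO against WT 24 passed as higher and 11 as lower, against 40.6% and 26.6% of all genes, with a median log2 difference of 0.12 against 0.06 over all genes tested. Among the higher, Nov and Kat2b entered the test only through KO, and among the lower, Aph1c, Dtx4 and Hey2 only through WT. Of all calls in KO against WT 60.4% were higher on the deposited scale and 47.9% with the length adjustment. With that adjustment the split became 19 higher and 16 lower, and the median 0.03 against -0.01 over all genes tested. Without KO replicate 1 or WT replicate 1 it was 23 higher and 7 lower. In HET against WT 20 passed as higher and 7 as lower, against 35.5% and 17.1% of all genes. That split was 13 and 9 with the length adjustment, 14 and 8 with quantile normalization and 16 and 10 with median scaling, and 3 were lower without HET replicate 2 or WT replicate 2. Of all calls in HET against WT 67.5% were higher on the deposited scale. This share was 49% with the length adjustment, and 51.1% with quantile normalization and with median scaling. In KO against HET 19 were higher and 7 lower, against 26.4% and 25.4% of all genes.

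Ligand-like genes outside the canonical family held the widest differences. Dlk1, the imprinted relative of Dlk2, averaged 18.8 ± 0.0687 RPKM in KO, 3.55 ± 0.0351 RPKM in HET and 1.55 ± 0.136 RPKM in WT (SD, n = 2 each). Nov, a secreted matricellular protein reported to bind Notch1, averaged 2.11 ± 0.113 RPKM in KO, 0.702 ± 0.0946 RPKM in HET and 0.206 ± 0.0701 RPKM in WT, and passed the filter only through KO. Both rose in KO against WT and in HET against WT (limma adjusted p = 2.2e-08 and 1.52e-05 for Dlk1, 3.84e-06 and 0.00106 for Nov). Of the microfibril proteins reported to interact with Jagged and Notch, Mfap2 rose in KO against WT by 0.62 ± 0.07 on the log2 scale (limma adjusted p = 0.000145). Mfap5 was lower, at 36.6 ± 0.734 RPKM in KO, 22.6 ± 3.4 RPKM in HET and 48.6 ± 0.953 RPKM in WT. Of the 4 tested genes of the list, Nov included, 3 passed as higher and 1 as lower in KO against WT, where 67.2% of all genes passed. Dll3, Dll4 and Dner were under the filter.

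Of the genes for the sugar additions that tune the receptor, 1 of 4 tested was higher and 1 lower in KO against WT, where 67.2% of all genes passed. Poglut1, the O-glucosyltransferase of the EGF repeats, was higher by 0.31 ± 0.04 (limma adjusted p = 0.000297), and Pofut1, the O-fucosyltransferase, was lower by a log2 difference of -0.14 ± 0.04 (limma adjusted p = 0.0202). The Pofut1 call was lost without KO replicate 1 or WT replicate 1 (limma adjusted p = 0.119 and 0.0844), while the length adjustment moved it to -0.307. Lfng, the lunatic fringe glycosyltransferase, did not pass in KO against WT (0.10 ± 0.05, limma adjusted p = 0.101).

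Of the genes of receptor cleavage 3 of 10 were higher and 4 lower in KO against WT, against 40.6% and 26.6% of all genes. The 4 lower became 2 without KO replicate 1, KO replicate 2 or WT replicate 1, and 1 of them, Aph1c, entered the test only through WT. The metalloproteases that make the first activating cut were among the higher ones. Adam10 averaged 12.7 ± 0.266 RPKM in KO, 11.2 ± 0.0677 RPKM in HET and 8.60 ± 0.307 RPKM in WT. Adam17 averaged 5.91 ± 0.302 RPKM in KO, 4.91 ± 0.0786 RPKM in HET and 3.47 ± 0.149 RPKM in WT. Both passed in all 3 comparisons (limma adjusted p between 2.33e-05 and 0.00883). Aph1a, a subunit of the gamma-secretase complex that makes the second cut, was lower by a log2 difference of -0.31 ± 0.04 in KO against WT (limma adjusted p = 0.000493).

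Among trafficking and turnover genes 6 of 11 were higher and 1 lower in KO against WT, against 40.6% and 26.6% of all genes. The split was 4 and 2 with the length adjustment, where 47.9% of all calls were higher, against 60.4% on the deposited scale. The lower gene, Dtx4, entered the test only through WT, and its call was lost without KO replicate 1, KO replicate 2, WT replicate 1 or WT replicate 2, which left 0 lower. Mib1, the ubiquitin ligase that makes ligands active in the sending cell, averaged 6.62 ± 0.248 RPKM in KO, 5.24 ± 0.11 RPKM in HET and 3.78 ± 0.0571 RPKM in WT. Its log2 difference was 0.67 ± 0.04 in KO against WT and 0.38 ± 0.04 in HET against WT (limma adjusted p = 1.17e-05 and 0.000371). Fbxw7, which marks the cleaved receptor for degradation, was higher by 0.41 ± 0.05 in KO against WT (limma adjusted p = 0.00024), a value that dropped to 0.272 with the length adjustment and 0.2 with quantile normalization. Dtx3, a Deltex family ubiquitin ligase, was higher by 0.34 ± 0.05 (limma adjusted p = 0.00062).

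For the nuclear complex and its corepressors, 10 of 13 tested genes were higher in KO against WT and 0 were lower, against 40.6% and 26.6% of all genes. Of the 10, Kat2b passed the filter only through KO. The median recovered length of the 13 genes was 5557 bases, and with the length adjustment the split was 7 higher and 3 lower. Median scaling gave 9 higher and 2 lower. Of all calls in KO against WT 47.9% were higher with the length adjustment and 50% with median scaling, against 60.4% on the deposited scale. Rbpj, the DNA-binding partner of the receptor, averaged 15.9 ± 0.192 RPKM in KO, 18.8 ± 0.396 RPKM in HET and 12.7 ± 0.157 RPKM in WT, so HET was highest. Its log2 difference was 0.30 ± 0.03 in KO against WT and 0.53 ± 0.03 in HET against WT (limma adjusted p = 0.000151 and 2.23e-05), and the KO value dropped to 0.122 with the length adjustment. Maml2, a Mastermind coactivator, was higher by 0.61 ± 0.05 in KO against WT (limma adjusted p = 4.74e-05), and by 0.391 with quantile normalization and 0.421 with the length adjustment. Ep300, a histone acetyltransferase recruited by Mastermind, was higher by 0.51 ± 0.04 (limma adjusted p = 3.08e-05), and by 0.235 with the length adjustment.

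Of the other targets 4 of 5 tested were lower in KO against WT and 1 higher, against 26.6% and 40.6% of all genes. Of the 4, Hey2 entered the test only through WT, where it was highest, so its entry already required a difference. The split, Hey2 included, was the same under quantile normalization, median scaling and the length adjustment. Under these settings 46.7%, 50% and 47.9% of all calls were higher, against 60.4% on the deposited scale. Ccnd1, the cyclin D1 gene, averaged 88.5 ± 0.074 RPKM in KO, 148.8 ± 0.62 RPKM in HET and 115.2 ± 1.53 RPKM in WT. Like Hes1, it was lowest in KO and highest in HET, and so was Hes6, an inhibitor of Hes1, at 7.09 ± 0.198 RPKM in KO, 9.50 ± 0.385 RPKM in HET and 8.49 ± 0.256 RPKM in WT. Cdkn1a, the p21 cell cycle inhibitor gene, was lower by a log2 difference of -0.33 ± 0.01 in KO against WT (limma adjusted p = 2.09e-06). Hey2 averaged 0.630 ± 0.0469 RPKM in KO, 0.843 ± 0.0483 RPKM in HET and 1.29 ± 0.263 RPKM in WT and passed the filter only through WT, with a log2 difference of -0.48 ± 0.08 in KO against WT (limma adjusted p = 0.00155). Myc was the 1 that rose, by 0.23 ± 0.03 (limma adjusted p = 0.000488). Hey1, Hey2 and Heyl together summed to 1.2 and 1.12 RPKM in KO, 1.53 and 1.67 RPKM in HET and 2.12 and 2.50 RPKM in WT, with Heyl alone at 0.1003 and 0.09025 RPKM in KO, 0.184 and 0.239 RPKM in HET and 0.295 and 0.353 RPKM in WT. Hes2, Hes3, Hes5, Hes7, Nrarp and Heyl were under the filter.

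**Figure D5:**
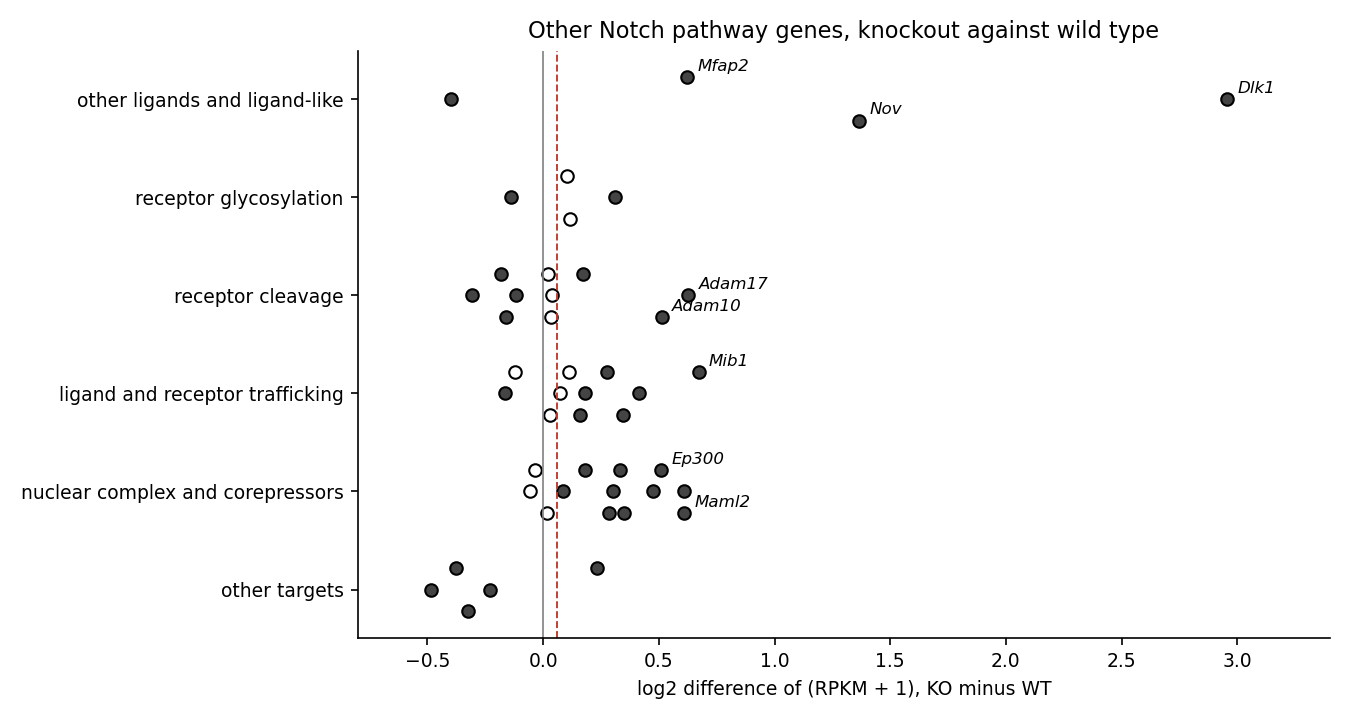
Log2 difference of (RPKM + 1), KO minus WT (horizontal axis), for each tested gene of the 6 pathway lists (rows; the vertical spread within a row only separates points). Filled points have a limma adjusted p under 0.05, and the dashed line is the median of all genes tested, 0.06. The points of the other targets lie to the left except Myc, and those of the nuclear complex mostly to the right, where the split of calls was 7 higher and 3 lower with the length adjustment. Hey2, of the other targets, entered the test only through WT.

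The genes closest in profile to Jag1, Dlk2 and Notch2 over the 6 libraries were found by Euclidean distance between log2 profiles centred on each gene's mean. For Jag1 they were Ntn4 (distance 0.042), Kif1a (0.144) and Fgd3 (0.151), and Ntn4, a netrin of basement membranes, averaged 7.18 RPKM in KO, 11.9 RPKM in HET and 16.9 RPKM in WT. Dlk2 was closest to Pcm1 (0.078), Ccdc88a (0.087) and Pdcd4 (0.093), and Pcm1, a protein of centriolar satellites, averaged 2.59 RPKM in KO, 1.45 RPKM in HET and 0.877 RPKM in WT. Notch2 was closest to Klhl24 (0.035), Phf6 (0.051) and Pik3ip1 (0.053). These distances describe likeness over 6 libraries only.

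Markers of other cell types were read beside these results, since in bulk RNA fewer cells of a type and less RNA per cell cannot be told apart. The 10 endothelial markers summed to 0.614 and 0.727 RPKM in KO, 0.394 and 0.402 RPKM in HET and 0.449 and 0.415 RPKM in WT, none reached the filter, and Emcn and Cldn5 were at 0 in every library. Esam was the highest of them. Keratinocyte markers summed to 1.01 and 1 RPKM in KO, 1.05 and 0.945 RPKM in HET and 0.764 and 0.866 RPKM in WT, with 0 of 8 at the filter and Krt10 the highest. Pericyte and smooth muscle markers, led by Pdgfrb, summed to 43.5 and 43.8 RPKM in KO, 50.8 and 52.1 RPKM in HET and 47.5 and 47.8 RPKM in WT. Of 5 tested 2 were higher and 3 lower in KO against WT, against 40.6% and 26.6% of all genes.

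Macrophage and leukocyte markers, led by Lyz2, summed to 38.5 and 38.0 RPKM in KO, 3.75 and 3.32 RPKM in HET and 4.67 and 4.71 RPKM in WT, and all 4 tested were higher in KO against WT, where 67.2% of all genes passed. Of these 4, Csf1r and Tyrobp entered the test only through KO, so their entry already required a difference. In HET against WT 2 of the 4 were higher and 1 lower, against 35.5% and 17.1% of all genes. Schwann cell markers, led by Ngfr, summed to 14.8 and 15.4 RPKM in KO, 32.8 and 31.9 RPKM in HET and 26.4 and 26.4 RPKM in WT. This order, lowest in KO and highest in HET, was that of Hes1, Hes6 and Ccnd1. The part of these other cell types in the results on the Notch genes was not tested.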

How the data were processed

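The deposited table, made by the authors, gives 1 RPKM value per gene symbol and RNA library. The unit is not named per the file headers and was identified from the values. The submitters' processing notes name TopHat and mm9. Libraries kept the strand by dUTP, per the labels' protocols, but the sources used here do not say whether reads were counted by strand. The step that 1 read is worth, found from low values and whole gene lengths, gave read totals for reads of 37 bases. Each of the 18888 genes above 0 was given the smallest length that made its aligned bases whole in every library. For genes with few reads this can be only a fraction of the gene's length, and their read numbers are then too low. Hes5, for example, came out at 69 bases and 0.0541 reads in HET replicate 2. Values can hold fractions of a read. Between 62.7% and 64.5% of reads fell in gene rows.

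Values were taken as log2(RPKM + 1) and fitted over 3 genotype means in limma (version 3.58.1, R 4.3.3), with variances moderated along an intensity trend. The test was two-sided with 3 residual degrees of freedom, and p-values were adjusted over all genes tested by Benjamini-Hochberg, with 0.05 as threshold. SE is that of the fit, and SD is between the 2 libraries. Tables and exact intervals were made with Python 3.11.15, pandas 2.3.3 and SciPy 1.17.1. The fit was tested on simulated data. Replicate libraries were kept apart, since their mean squared difference exceeded counting noise 2.36 times in KO, 1.84 times in HET and 1.58 times in WT. A ratio taken from the median deviation, which a few genes sway little, was only 1.21 in KO, 1.22 in HET and 1.16 in WT. The typical gene thus differed between replicate libraries by little more than counting noise. The genes, the 6 pathway lists and the marker lists were chosen with earlier results of these data known. Named besides the 10 genes are Hotair, the highest gene of each marker list, up to 3 tested genes of each pathway list with the smallest p in KO against WT, every tested ligand-like gene and other target, and the closest genes in profile. Alternatives were other pseudocounts (0.1 and 5), filters (none and 5 RPKM), quantile normalization, median scaling, a fit on each pair of genotypes, the replicate number as a block and leaving out each library. A subtraction of a lowess trend on gene length (span 0.3), and the counts per pathway list under each setting, were added after seeing the data.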

Additional observations from a re-analysis of the deposited data

How the results depend on the processing

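Over 51 single-gene results and 15 alternatives, 533 values kept their direction and side of the threshold, 31 lost their call, 2 gained one and 5 reversed. The results of Notch4, Jag2, Dll1 and Hey1 came from the fit with no filter only. They had no alternative run and add nothing to these counts. The reversals were Notch1 in KO against WT (-0.028 with quantile normalization, -0.150 with the length adjustment), Notch3 in HET against WT (-0.025 and -0.023 under the same pair) and Lfng in KO against WT (-0.104 with quantile normalization). The cause was not tested. With the filter at 5 RPKM, 4754 genes passed in KO against WT, against 7324, since fewer genes were tested, and 3 of the Notch genes passed in KO against WT and 3 in KO against HET. The length adjustment also left 3 in KO against HET. Leaving out 1 library gave between 3 and 6 Notch genes in KO against HET, with 3 without KO replicate 1, KO replicate 2 or HET replicate 1. Of all calls in KO against WT 60.4% were higher, and 46.7% with quantile normalization, 50% with median scaling, 47.9% with the length adjustment and 48.2% with the filter at 5 RPKM. In HET against WT it was 67.5%, and 51.1%, 51.1% and 49% with the first 3 of these. Library numbers did not pair the samples (correlations of deviations of 0.0648, -0.062 and -0.0882 over 10897 genes), and with the replicate block 7253, 5564 and 5448 genes passed in KO against WT, HET against WT and KO against HET. Levels under about 0.1 RPKM rest on fewer than 10 reads for Jag2 and Dll1.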
